A study of Sus scrofa with 32 samples.

Results

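Inhibitory checkpoints are receptors through which a T cell is restrained, and 9 genes of this system were followed through the pig ileum and blood: PDCD1, CTLA4, TIGIT, LAG3, CD96 and CD200R1, the co-stimulatory receptor CD28, and FOXP3 and IL2RA as marks of regulatory T cells. They were chosen by symbol, and all 9 were found among the 25880 genes of the deposited count matrices. Their levels were read in 22584 CD3E cells, which held at least 1 UMI (unique molecular identifier, 1 counted transcript) of the T cell receptor chain CD3E, and in 6316 CD3E-negative CD2 cells, which held no CD3E UMI and at least 1 UMI of CD2, an adhesion receptor of T, NK and some innate lymphoid cells. Both sets came from 48629 cells that passed quality control. The samples were from 2 untreated mixed-breed pigs aged 7 weeks, pig 1 labelled female and pig 2 labelled male. From each pig there was 1 library of ileum with Peyer's patches (PP), 1 of ileum without them (non-PP), 1 of a whole cross section (whole ileum) and 1 of peripheral blood mononuclear cells (PBMC). The outer muscle of the ileum had been removed, and what lay inside it was dissociated together before lymphocytes were enriched, so epithelial lymphocytes and those of deeper layers cannot be told apart within a library.

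Activation of a T cell needs a second signal beside the antigen receptor, which CD28 gives when it binds CD80 or CD86. CTLA4 binds the same ligands more tightly and withholds that signal, PDCD1 (PD-1) dampens receptor signalling when it meets CD274 or PDCD1LG2, and LAG3 binds MHC class II. TIGIT and CD96 share nectin family ligands, and CD200R1 is the receptor for CD200. FOXP3 is the transcription factor that defines regulatory T cells, which also carry the interleukin-2 receptor chain IL2RA and much CTLA4, while follicular helper T cells, which help B cells in the germinal centres of Peyer's patches, are known for PDCD1, ICOS and CXCR5.

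In Sscrofa11.1, the assembly the reads had been aligned to, the RefSeq table placed CD28 (chr15:107128103-107155431) and CTLA4 (chr15:107283081-107288041) as neighbours 128 kb apart, with PDCD1 (chr15:140337353-140347493) elsewhere on chromosome 15. TIGIT (chr13:145673646-145799024), CD200R1 (chr13:146953135-146994325) and CD96 (chr13:148103424-148192272) lay on chromosome 13, 1154 and 1109 kb apart in that order, LAG3 (chr5:63929669-63935054) lay 11 kb from CD4, FOXP3 was at chrX:43303777-43328164 and IL2RA at chr10:64948149-65001320.

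The libraries held 21134542 to 40111934 UMIs and 3776 to 7704 cells after quality control, with a median of 2577.5 to 3583.5 UMIs a cell. UMIs of Y-linked genes went against 1 label: they stood at 0 to 0.224 UMIs per 1000000 (CPM) in the other 3 libraries of pig 1, at 119 to 226 CPM in the 4 libraries of pig 2, and at 207 CPM in the library labelled whole ileum pig 1. Results that rest on that library are given with and without it where the call changes, including those that pair libraries by the labelled pig. Any pair of libraries shared 21 to 80 cell barcodes, where the product of their cell numbers over the length of the barcode list gives 20 to 76.7. Cells with at least 2 UMIs of B cell genes made up 26.5% and 19.3% of CD3E cells in the PP libraries, 0.352% and 0.538% in the non-PP libraries, 12.1% and 24.5% in whole ileum and 5.17% and 4.26% in PBMC. Their part in the results was not tested apart from leaving those cells out, which is given beside each call that it ended.

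CD3E cells were divided by class genes into CD4-gated cells (a CD4 UMI and none of CD8B or TRDC), CD8B-gated cells (CD8B without CD4 or TRDC) and TRDC-gated cells (TRDC, a chain of the γδ T cell receptor, without CD4 or CD8B). These 3 gates held 952, 2756 and 4474 ileal cells and 603, 1166 and 1166 PBMC. All levels below are CPM, the UMIs of a gene per 1000000 UMIs summed over the gated cells of 1 library. Levels are compared within a gene and not between genes, since the counts were not set against transcript length. In CD4-gated cells the 5 T cell markers found summed to 1987 to 2163 CPM in the ileum and 1454 to 1603 CPM in blood. The CD4 gate of the non-PP libraries was small, 47 and 86 cells, and it held 118 and 1790 CPM of myeloid markers and 211 and 1112 CPM of epithelial markers, against 65.7 to 124 CPM and 15.6 to 45.0 CPM in PP. The part of those transcripts in the results was not tested.

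**Figure D1:**
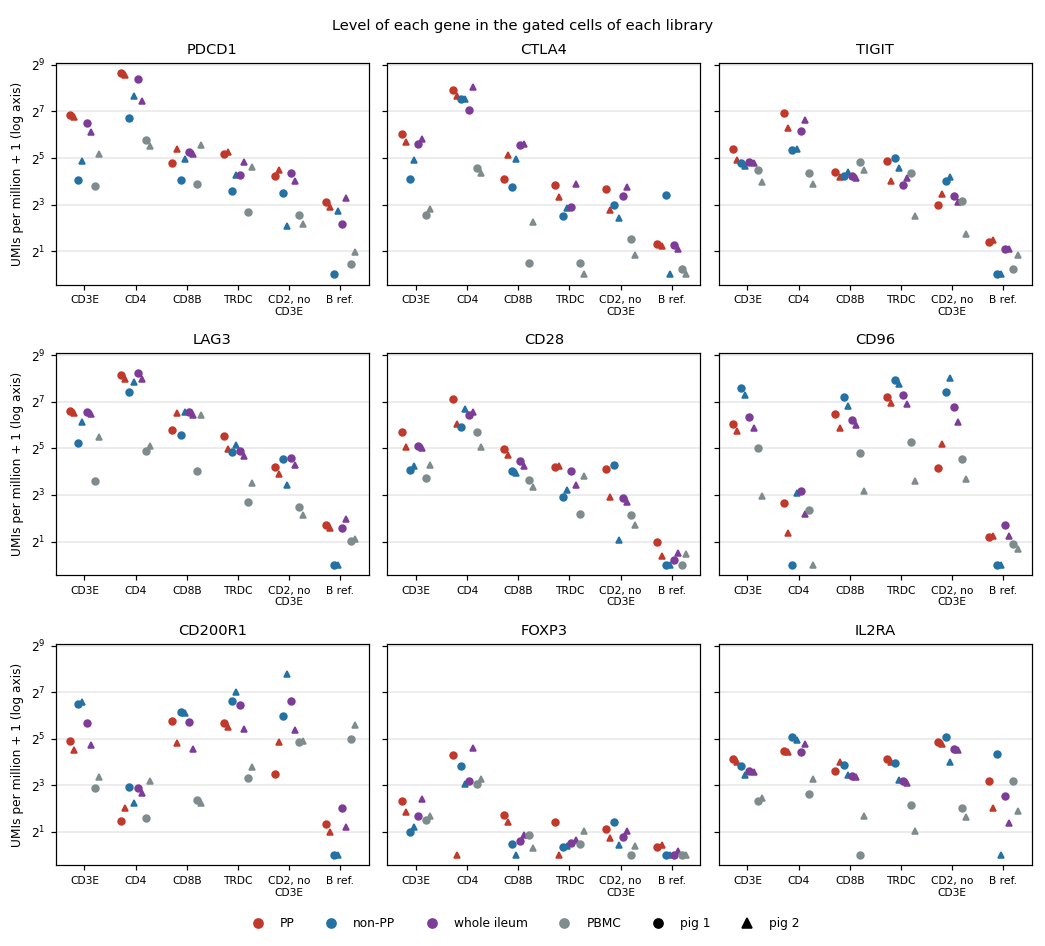
Level of each gene (CPM + 1, log axis) in the gated cells of each library, 1 point per library, coloured by dissection or blood and shaped by pig. B ref. marks CD3E-negative B cells kept as a background reference, which does not hold for CD200R1 and IL2RA in blood. In the ileum PDCD1, CTLA4, LAG3, TIGIT and CD28 stand higher in the CD4 gate than in the other gates, with all 6 libraries of PDCD1 between 105 and 399, and CD96 stands lower there than in the other T cell gates. In blood TIGIT, and in PBMC pig 2 also LAG3 and PDCD1, is higher in the CD8B gate than in the CD4 gate.

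Within the ileum the members fell into opposite patterns by T cell class. PDCD1, CTLA4, LAG3, TIGIT and CD28 were higher in CD4-gated cells than in the mean of the CD8B and TRDC gates, together with FOXP3 and IL2RA, while CD96 and CD200R1 were lower there. All 9 members passed at an adjusted p below 0.05 (edgeR quasi-likelihood test, library as a term), 7 higher and 2 lower, where 15.6% of 9722 genes tested were called.

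PDCD1 levels in CD4-gated cells were 399 and 375 CPM in PP, 105 and 199.7 CPM in non-PP and 333 and 175 CPM in whole ileum, pig 1 first. The same libraries gave 15.9 to 41.2 CPM in CD8B-gated and 11.09 to 37.8 CPM in TRDC-gated cells, so the CD4 gate did not overlap with the others. The log2 difference was 3.15 ± 0.21 (SE), or 8.88-fold, with 6 of 6 libraries in the same direction (adjusted p = 3.46e-11). A PDCD1 UMI was held by 21.3% to 56.4% of ileal CD4-gated cells and by 0% to 2.82% of ileal B-gated cells. Median depth was 2264 to 3703 UMIs in the B gate, near the 2023 to 2783 of the CD4 gate. The B gates of non-PP held only 25 and 43 cells. In the other ileal libraries the B gate gave 1.40% to 2.82%, at a median depth of 2748 to 3138 UMIs.

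CTLA4 in CD4-gated cells stood at 241 and 202 CPM in PP, 184 and 185 CPM in non-PP and 131 and 261 CPM in whole ileum. CD8B-gated cells held 12.7 to 47.3 CPM and TRDC-gated cells 4.75 to 13.9 CPM, with the higher level in CD8B-gated cells in 6 of 6 libraries. CTLA4 was thus ordered CD4, CD8B, TRDC in every ileal library, with log2 differences of 3.51 ± 0.21 (CD4 against the other gates, adjusted p = 3.27e-12) and 1.78 ± 0.27 (CD8B against TRDC, adjusted p = 0.000108).

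LAG3 followed the same order. Its CD4-gated levels were 284 and 255 CPM in PP, 171 and 229 CPM in non-PP and 304 and 254 CPM in whole ileum, above the 46.4 to 93.7 CPM of CD8B-gated and the 24.3 to 45.3 CPM of TRDC-gated cells. CD4-gated cells exceeded the others by 2.25 ± 0.18 on the log2 scale (adjusted p = 1.73e-09), and CD8B-gated exceeded TRDC-gated cells by 1.23 ± 0.22 (adjusted p = 0.000543). CTLA4 and LAG3 were the 2 members called higher in CD8B-gated than in TRDC-gated cells, CD96 was the 1 called lower, and 8.89% of genes were called in that comparison.

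TIGIT was 39.5 to 121 CPM in ileal CD4-gated cells with a median of 74.3 CPM, and 16.9 to 19.98 CPM in CD8B-gated cells, which lay clear below. The CD8B and TRDC gates overlapped for TIGIT (log2 difference -0.23 ± 0.24, adjusted p = 0.619). CD28, which is carried by naive and helper T cells, was 59.2 to 138 CPM in CD4-gated, 14.3 to 30.8 CPM in CD8B-gated and 6.60 to 17.8 CPM in TRDC-gated cells. CD4-gated cells stood above the mean of the other gates in 6 of 6 libraries for TIGIT (2.00 ± 0.21) and for CD28 (2.40 ± 0.25).

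CD96, a receptor of cytotoxic and NK cells, went the other way. Only 16 UMIs of CD96 were counted over all 952 ileal CD4-gated cells, in 13 cells, which gave 0 to 8 CPM. TRDC-gated cells held 148 and 121 CPM in PP, 246 and 215 CPM in non-PP and 155 and 118 CPM in whole ileum, and CD8B-gated cells 56.9 to 148 CPM. In 6 of 6 libraries the CD4 gate was lower (log2 difference -4.55 ± 0.47, adjusted p = 1.22e-07) and the TRDC gate was above the CD8B gate (-0.92 ± 0.26 for CD8B minus TRDC, adjusted p = 0.023). The second call ended without PP pig 2, non-PP pig 1 or either whole ileum library (-0.88 to -0.94, adjusted p = 0.0576 to 0.0955), with pig in place of library as a term (replicate block, adjusted p = 0.305) and in DESeq2 (adjusted p = 0.0592), with the same direction in both.

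CD200R1 was 1.77 to 6.58 CPM in ileal CD4-gated, 22.8 to 69.8 CPM in CD8B-gated and 41.6 to 126 CPM in TRDC-gated cells, so the CD4 gate lay below both others (-3.81 ± 0.52, adjusted p = 5.79e-06). In blood its highest levels were outside the T cell gates, at 30.8 and 47.3 CPM in B-gated cells and 28.4 and 28.5 CPM in CD3E-negative CD2 cells. Ileal B-gated cells held 0 to 3.12 CPM, while a CD200R1 UMI was found in 9.30% and 16.8% of blood B-gated cells, so the B cell reference is no background for this gene in blood.

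FOXP3 was sparse. Of 16117 ileal CD3E cells, 116 held a FOXP3 UMI, and of 6467 PBMC CD3E cells 39 did. Ileal CD4-gated cells held 0 to 23.0 CPM, with 18.5 and 0 CPM in PP, 13.2 and 7.40 CPM in non-PP and 8 and 23.0 CPM in whole ileum, and 5 of 6 libraries stood above the other gates (log2 difference 3.73 ± 0.48, adjusted p = 3.08e-06). Of the 116 ileal FOXP3 cells, 27.6% were CD4-gated, although CD4-gated cells made up 5.91% of all ileal CD3E cells. IL2RA was 20.3 to 32.9 CPM in ileal CD4-gated cells, 9.29 to 14.8 CPM in CD8B-gated and 7.51 to 16.5 CPM in TRDC-gated cells (0.93 ± 0.24, adjusted p = 0.00715). That difference fell to 0.09 when every cell was thinned at random to the UMI minimum for a kept cell (adjusted p = 0.961). In blood, IL2RA was 8.05 and 2.69 CPM in B-gated cells. The CD4, CD8B and TRDC gates held 5.16, 0 and 3.51 CPM in PBMC pig 1 and 8.68, 2.23 and 1.05 CPM in PBMC pig 2. B-gated cells of PP held 8.08 and 3.01 CPM. The B cell reference is thus no background for IL2RA in blood either.

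By class, CD4-gated cells supplied 20.3% of the 2100 ileal PDCD1 cells, 22.6% of the 1397 CTLA4 cells, 17.9% of the 1422 CD28 cells, 15.5% of the 1306 TIGIT cells and 13.5% of the 2289 LAG3 cells. Cells with no class gene UMI, whose class is not known, supplied 53.6%, 54.7%, 55.4%, 46.9% and 47.7% in the same order. Such cells were common among all 16117 ileal CD3E cells. Of these, 8398 held no CD8B, TRDC or FOXP3 UMI, CD4-gated cells included, so the shares are not read as a result about the genes. CD4-gated cells supplied 0.316% of the 4119 CD96 cells. TRDC-gated cells, 27.8% of ileal CD3E cells, supplied 44.7% of the CD96 cells and 39.8% of the 2132 CD200R1 cells.

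CD3E-negative CD2 cells differed from the mean of the 3 T cell gates in 8 of the 9 members, 3 higher and 5 lower, where 29% of genes were called. CD200R1 (1.32 ± 0.28 on the log2 scale), CD96 (1.06 ± 0.28) and IL2RA (0.73 ± 0.16) were higher, in 5, 4 and 5 of 6 libraries, and LAG3 (-2.38 ± 0.22), CTLA4 (-2.20 ± 0.25), PDCD1 (-2.07 ± 0.24), CD28 (-1.94 ± 0.28) and TIGIT (-1.55 ± 0.22) were lower, each lower in 6 of 6 libraries. CD96 in these cells was 16.7 and 35.1 CPM in PP, 170.5 and 256 CPM in non-PP and 108 and 68.7 CPM in whole ileum, and CD200R1 was 10.1 and 27.6, 61.4 and 218, and 98.2 and 41.1 CPM in the same order. The mean of the T cell gates holds the CD4 gate, where both genes are near 0. Against the TRDC gate alone CD96 was lower in every library but non-PP pig 2, and CD200R1 was higher only in non-PP pig 2 and the library labelled whole ileum pig 1. The 5 genes called lower are high in the CD4 gate. Against the TRDC gate alone only LAG3 and TIGIT were lower in every library. CTLA4 and CD28 were higher in non-PP pig 1, and CTLA4 and PDCD1 in the library labelled whole ileum pig 1. CD96 and CD200R1 were lowest in PP. There the summed B-lineage markers of this gate reached 5391 and 8244 CPM. The summed innate lymphoid and NK markers were 518 and 920 CPM in PP, against 1950 and 3679 CPM in non-PP. At least 2 UMIs of B cell genes were held by 70.6% and 54.9% of these cells in PP. The shares were 0.493% and 1.53% in non-PP and 33.1% and 49.7% in whole ileum. The gate also held T cell receptor complex genes, with CD3G at 130 to 1984 CPM in the ileum. The paper describes CD3G in ileal innate lymphoid cells that largely lack CD3E, so CD3G cannot tell T cells from innate lymphoid cells here. Given the B cell UMIs, the gate is not taken as a pure innate lymphoid population. The part of these markers in the result was not tested. Without the library non-PP pig 2 the CD96 difference was 0.74 and was no longer called (adjusted p = 0.052).

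Next, PP was compared with non-PP tissue to ask what inclusion of Peyer's patches changed. Over all CD3E cells, PDCD1, CTLA4 and CD28 were higher and CD200R1 was lower in PP. The other 5 members, TIGIT, LAG3, CD96, FOXP3 and IL2RA, did not pass. These 4 of 9 members stood beside 5.89% of 11136 genes called.

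PDCD1 was 113 and 108 CPM in PP, 15.7 and 28.7 CPM in non-PP and 90.5 and 68.1 CPM in whole ileum. PP and non-PP did not overlap and whole ileum lay between them (log2 difference 2.32 ± 0.46, about 5-fold, adjusted p = 0.0353). A PDCD1 UMI was held by 20.3% and 19.7% of CD3E cells in PP and by 4.20% and 7.42% in non-PP, and by 11.6% and 11.4% against 1.88% and 3.92% once each cell was thinned to the UMI minimum for a kept cell.

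CTLA4 was 63.9 and 50.8 CPM in PP and 16.1 and 28.8 CPM in non-PP (1.36 ± 0.25, adjusted p = 0.0277). CD28 was 51.1 and 32.2 CPM in PP and 15.8 and 17.8 CPM in non-PP (1.30 ± 0.25, adjusted p = 0.0312). CD200R1 was 28.8 and 21.7 CPM in PP and 88.1 and 95.4 CPM in non-PP (-1.87 ± 0.32, adjusted p = 0.0239). In each of the 3 genes the groups were apart. CD96 was 65.5 and 52.1 CPM in PP and 195 and 156 CPM in non-PP, also apart, yet its difference of -1.59 ± 0.58 did not pass (adjusted p = 0.149).

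These calls rested on few libraries. Without PP pig 1, PP pig 2 or non-PP pig 1 none of the 4 members was called (edgeR, PDCD1 between 1.98 and 2.34 on the log2 scale with adjusted p = 0.134 to 0.14), and without non-PP pig 2 only CTLA4 was (PDCD1 2.76, adjusted p = 0.064). Whole ileum enters the comparison through the spread that the fit shares over groups. Without the library labelled whole ileum pig 1 the calls of PDCD1 (adjusted p = 0.07), CTLA4 (adjusted p = 0.0624) and CD28 (adjusted p = 0.0663) ended, and without whole ileum pig 2 they ended at adjusted p = 0.0676, 0.0555 and 0.0638, while CD200R1 was called in both cases. PDCD1 (2.78, adjusted p = 0.0585) and CD200R1 (-1.38, adjusted p = 0.089) were no longer called once cells with B cell UMIs were left out. The class make-up of CD3E cells changes with the dissection, and fewer cells of a class and less RNA per cell cannot be told apart in such sums: CD4-gated cells numbered 275 and 201 in PP and 47 and 86 in non-PP. RNA outside cells, read from barcodes with 10 to 100 UMIs, held 47.1 and 47.7 CPM of PDCD1 in PP and 6.69 and 12.8 CPM in non-PP, and 25.3 and 26.4 CPM of CD200R1 in PP against 90.8 and 174 CPM in non-PP, and it also held 28.8 and 27.7 CPM of CTLA4 in PP against 6.17 and 8.98 CPM in non-PP, and 21.3 and 17.6 CPM of CD28 against 5.92 and 5.99 CPM. The RNA outside cells thus moved with all 4 called members in the same directions. Its part in the result was not tested.

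Inside the CD4 gate none of the 7 members tested passed between PP and non-PP (edgeR), where 1.76% of 5856 genes were called. PDCD1 (1.21 ± 0.33) and TIGIT (1.25 ± 0.37) had unadjusted p values of 0.00349 and 0.00579 and were the 2 members below 0.05 before adjustment (adjusted p = 0.104 and 0.132), and both were called when the filter on low counts was dropped, though DESeq2 called neither. CTLA4 in this gate was 241 and 202 CPM in PP and 184 and 185 CPM in non-PP (0.19 ± 0.29), a difference smaller than that of all CD3E cells, and the difference between the 2 estimates was not tested.

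**Figure D2:**
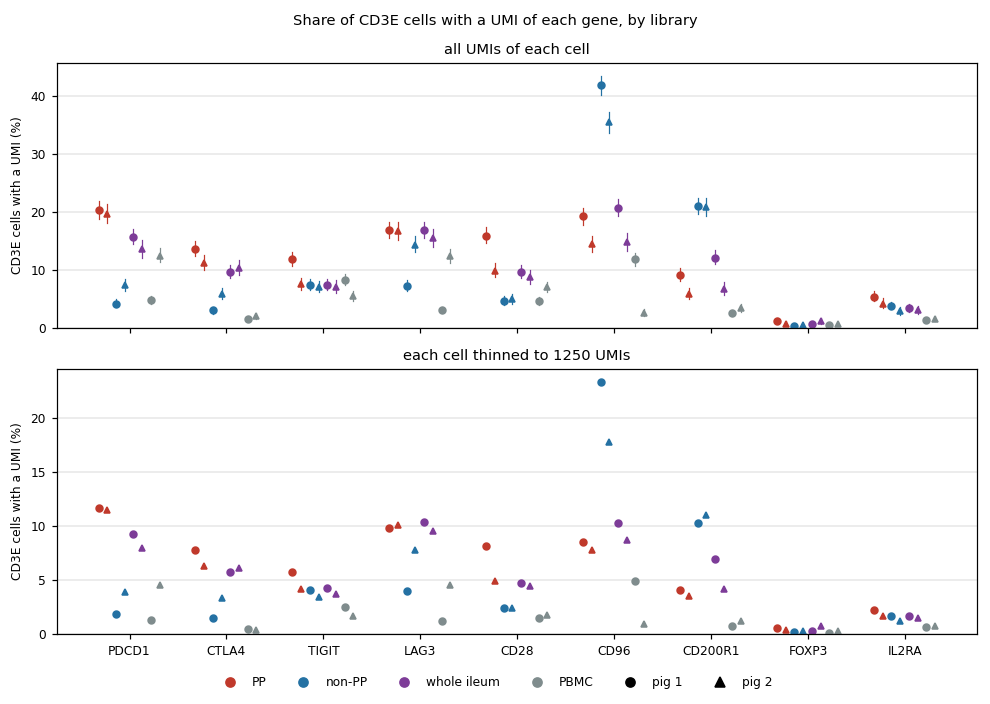
Share of CD3E cells with at least 1 UMI of each gene in each library, from all UMIs (top, bars are 95% exact binomial intervals for counting error) and after thinning each cell to the same number of UMIs (bottom). PDCD1 reaches 20.3% and 19.7% in PP against 4.20% and 7.42% in non-PP, and CD96 stands at 41.8% and 35.4% in non-PP against 19.2% and 14.4% in PP.

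Ileal T cells were then compared with blood T cells of the pigs. Over all CD3E cells, 6 of 9 members were higher in the ileum and none lower, in a comparison where 27.7% of genes were called. The 6 ileal libraries come from 2 animals, and each dissection has its own mean in the fit. These p-values thus measure the spread between libraries of the same dissection or of blood, not that between dissections. Preparation also differed. By the paper's methods, ileal cells went through warm incubations, enzyme digestion, a density gradient and dead cell removal, while PBMC came from blood preparation tubes. Tissue and preparation cannot be told apart in any comparison of ileum with blood.

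CTLA4, the competitor of CD28, had the smallest p. Its CD3E cell levels ran from 16.1 to 63.9 CPM over the 6 ileal libraries with a median of 49.2 CPM, against 4.92 and 6.07 CPM in PBMC, with no overlap (2.80 ± 0.24, 6.94-fold, adjusted p = 0.000421). CD200R1 was 21.7 to 95.4 CPM with a median of 39.7 CPM in the ileum and 6.43 and 9.14 CPM in PBMC (2.44 ± 0.31). CD96 was 52.1 to 195 CPM against 31.2 and 6.73 CPM (2.16 ± 0.54), IL2RA 9.995 to 16.4 CPM against 4.00 and 4.54 CPM (1.48 ± 0.19), CD28 15.8 to 51.1 CPM against 12.3 and 18.3 CPM (0.81 ± 0.21), and TIGIT 24.2 to 40.3 CPM against 21.3 and 14.8 CPM (0.59 ± 0.18). Of these, only CD28 overlapped between ileum and blood. RNA outside cells was higher in the ileum for the same genes, with CD200R1 at 25.3 to 174 CPM against 10.6 and 23.2 CPM, CTLA4 at 6.17 to 28.8 CPM against 3.83 and 3.58 CPM and CD96 at 24.8 to 116 CPM against 20.4 and 6.08 CPM. IL2RA (2.84 to 13.9 CPM against 1.70 and 1.79 CPM) and TIGIT (11.06 to 19.0 CPM against 8.09 and 9.65 CPM) did not overlap there either, while CD28 did (5.92 to 21.3 CPM against 2.55 and 6.44 CPM). The part of this RNA in the differences was not tested.

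PDCD1 (1.19 ± 0.39, adjusted p = 0.058), LAG3 (1.39 ± 0.49, adjusted p = 0.0716) and FOXP3 (0.13 ± 0.34, adjusted p = 0.818) did not pass. PBMC pig 2 held 35.1 CPM of PDCD1 and 43.7 CPM of LAG3, while PBMC pig 1 held 13.0 and 11.2 CPM. Without PBMC pig 2 both were called (PDCD1 2.07, adjusted p = 0.00962, and LAG3 2.69, adjusted p = 0.00389), as they were with pig as a term (replicate block, PDCD1 1.27, adjusted p = 0.033, and LAG3 1.55, adjusted p = 0.0294; without the library labelled whole ileum pig 1 as well, adjusted p = 0.0273 and 0.033). PDCD1 was also called without non-PP pig 1 (adjusted p = 0.0495).

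The calls of TIGIT, CD28 and CD96 were the least stable. When counts were summed per pig, 2 against 2, TIGIT (0.63, adjusted p = 0.128), CD28 (0.93, adjusted p = 0.0662) and CD96 (2.36, adjusted p = 0.0898) were no longer called. Without the library labelled whole ileum pig 1 the same 3 fell short, per library (adjusted p = 0.0806, 0.0572 and 0.0538) and per pig (adjusted p = 0.138, 0.0745 and 0.0874). TIGIT was lost without any 1 of 6 libraries, most without PBMC pig 2 (0.35, adjusted p = 0.237), and CD28 also without whole ileum pig 2 (adjusted p = 0.0561) or PBMC pig 1 (0.54, adjusted p = 0.157).

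**Figure D3:**
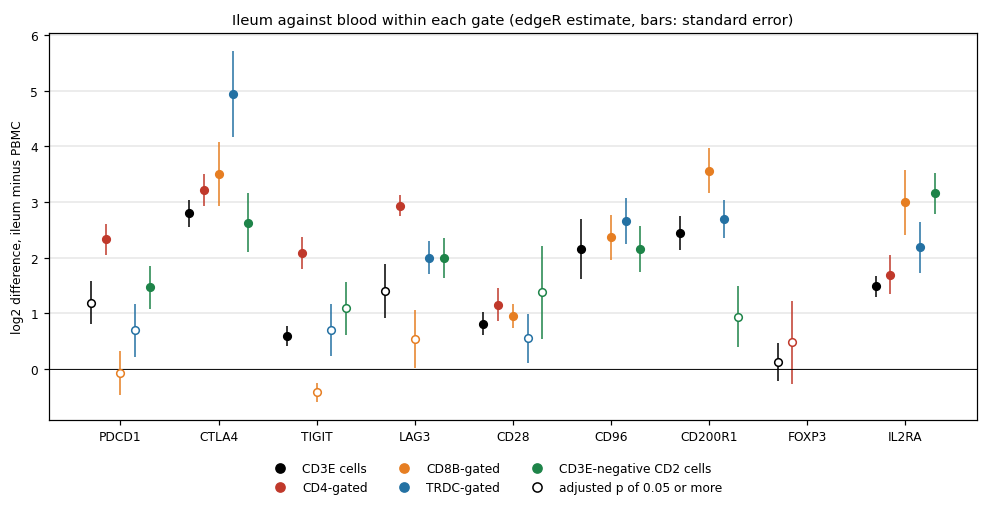
Log2 difference between ileum and PBMC (edgeR estimate, bars are 1 standard error) for each gene in 5 gates, filled where the adjusted p was below 0.05 and open where it was not. Genes that were not tested in a gate have no point. CTLA4 and IL2RA are filled in all 5 gates, whereas PDCD1 is filled in the CD4-gated and CD3E-negative CD2 cells and lies at -0.08 in CD8B-gated cells.

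In CD4-gated cells 6 of 7 tested members were higher in the ileum, where 14.8% of genes were called. LAG3 was 171 to 304 CPM in the ileum (median 255 CPM) and 28.9 and 33.7 CPM in PBMC (2.93 ± 0.19, adjusted p = 3.28e-06). CTLA4 was 131 to 261 CPM (median 193 CPM) against 22.7 and 19.5 CPM (3.22 ± 0.28, adjusted p = 2.64e-05). PDCD1 was 105 to 399 CPM (median 266 CPM) against 53.7 and 44.5 CPM (2.33 ± 0.28, adjusted p = 0.000227). TIGIT (2.08 ± 0.28), IL2RA (1.70 ± 0.35) and CD28 (1.16 ± 0.30) completed the list, and none of the 6 overlapped between ileum and blood. CD28 fell short without non-PP pig 2 (0.96, adjusted p = 0.118), whole ileum pig 2 (adjusted p = 0.0574) or PBMC pig 2 (0.82, adjusted p = 0.25), and IL2RA without PBMC pig 1 (1.45, adjusted p = 0.0547). FOXP3 was 0 to 23.0 CPM in the ileum and 7.23 and 8.68 CPM in PBMC (0.48 ± 0.75, adjusted p = 0.735).

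In CD8B-gated cells 5 of 8 members were higher in the ileum and 15.5% of genes were called. CTLA4 was 12.7 to 47.3 CPM against 0.416 and 3.72 CPM (3.51 ± 0.58, adjusted p = 0.00399), CD200R1 22.8 to 69.8 CPM against 4.16 and 3.72 CPM (3.57 ± 0.40, adjusted p = 0.000512), and IL2RA 9.29 to 14.8 CPM against 0 and 2.23 CPM (3.00 ± 0.59). CD96 (2.37 ± 0.41) and CD28 (0.95 ± 0.21) were the others. PDCD1 (-0.08 ± 0.40), LAG3 (0.53 ± 0.51) and TIGIT (-0.42 ± 0.17, adjusted p = 0.141) did not pass. The 2 blood libraries differed in the first 2 genes. CD8B-gated cells of PBMC pig 2 held 46.1 CPM of PDCD1 and 84.5 CPM of LAG3, within or above the ileal ranges. Those of PBMC pig 1 held 13.7 and 15.4 CPM. Leaving out PBMC pig 2 moved the estimates of PDCD1 to 1.09 and of LAG3 to 2.28. CD28 was no longer called without that library (0.77, adjusted p = 0.145), in DESeq2 (adjusted p = 0.104), after thinning (adjusted p = 0.0906) or per pig (adjusted p = 0.0546). In blood 51.5% of the 480 LAG3 cells were CD8B-gated, against 18.0% of all CD3E cells, but the pooled share rests mostly on PBMC pig 2. There 221 of 375 LAG3 cells were CD8B-gated, with 709 of all 3025 CD3E cells. In PBMC pig 1 the numbers were 26 of 105 and 457 of 3442.

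In TRDC-gated cells 5 of 8 members were higher in the ileum, with 14.1% of genes called. CTLA4 was counted as 124 UMIs over 4474 ileal cells and as 1 UMI over 1166 PBMC, a ratio of 36.6 per UMI sequenced with a 95% exact interval of 6.45 to 1456 that covers counting error only. CD96 was 118 to 246 CPM against 38.2 and 11 CPM (2.66 ± 0.41, adjusted p = 0.00502), CD200R1 41.6 to 126 CPM against 8.97 and 12.6 CPM (2.70 ± 0.34, adjusted p = 0.00203) and LAG3 24.3 to 45.3 CPM against 5.46 and 10.5 CPM (2.00 ± 0.30, adjusted p = 0.00443). IL2RA was called at 2.19 ± 0.46 but not without the library labelled whole ileum pig 1 (adjusted p = 0.0506), without PBMC pig 2 (1.67, adjusted p = 0.0698) or per pig (adjusted p = 0.0683). PDCD1, TIGIT and CD28 had estimates of 0.69 ± 0.48, 0.70 ± 0.47 and 0.55 ± 0.45 and overlapped between ileum and blood. Without PBMC pig 2 PDCD1 (2.06, adjusted p = 0.025) and CD28 (1.73, adjusted p = 0.0466) were called, and without PBMC pig 1 TIGIT was (2.09, adjusted p = 0.0393).

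In CD3E-negative CD2 cells 5 of 8 members were higher in the ileum, where 25.6% of genes were called. IL2RA, the high-affinity receptor chain that activated and innate lymphoid cells also carry, was 14.9 to 32.4 CPM in the ileum with a median of 24.6 CPM and 3.06 and 2.08 CPM in PBMC (3.16 ± 0.37, adjusted p = 0.000959). CTLA4 (2.63 ± 0.53), CD96 (2.15 ± 0.42), LAG3 (2.00 ± 0.36) and PDCD1 (1.47 ± 0.39) passed as well, with overlap between ileum and blood for CD96 and PDCD1. PDCD1 was called in the absence of either non-PP library but of no other (adjusted p = 0.053 to 0.215, 0.0776 without the library labelled whole ileum pig 1). CD200R1 (0.93 ± 0.55, adjusted p = 0.251) was called after thinning (1.97, adjusted p = 0.0163), without cells with B cell UMIs (2.27, adjusted p = 0.0169) and per pig (1.34, adjusted p = 0.0287), though not per pig without the library labelled whole ileum pig 1 (1.01, adjusted p = 0.384). Without PBMC pig 2 the calls of CTLA4, LAG3, CD96 and PDCD1 ended (adjusted p = 0.119, 0.0798, 0.0983 and 0.215). Blood cells of this gate held 3244 and 3742 CPM of innate lymphoid and NK markers and 646 and 935 CPM of B-lineage markers. Cells with at least 2 UMIs of B cell genes made up 18.5% and 9.27% of this gate in blood and 0.493% to 70.6% in the ileum. The gates compared here thus differ in make-up, whose part was not tested.

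Whether the step from CD8B and TRDC gates up to the CD4 gate differed between ileum and blood was tested as an interaction. TIGIT and PDCD1 were called, 2 of 9 members, where 1.22% of genes were. The TIGIT step was 2.04 ± 0.45 larger on the log2 scale in the ileum (adjusted p = 0.0201) and the PDCD1 step 1.85 ± 0.46 larger (adjusted p = 0.0405). LAG3 (1.58 ± 0.46, adjusted p = 0.0958) and CD200R1 (-3.63 ± 1.09, adjusted p = 0.115) did not pass, and CTLA4 had an estimate of -1.11 ± 0.83. With pig in place of library (replicate block) neither call held (adjusted p = 0.118 for TIGIT and 0.319 for PDCD1). PDCD1 came to 0.54 without PBMC pig 2 (adjusted p = 0.94) and to 1.75 without the library labelled whole ileum pig 1 (adjusted p = 0.107), where TIGIT was 2.02 (adjusted p = 0.0566). TIGIT was 1.56 without PBMC pig 1 (adjusted p = 0.452) and 2.26 without PBMC pig 2 (adjusted p = 0.231), and it also fell short without PP pig 2 (adjusted p = 0.0559) or whole ileum pig 2 (adjusted p = 0.0606). PDCD1 fell short without PP pig 1, PP pig 2 or non-PP pig 1 as well (adjusted p = 0.0663, 0.093 and 0.0505). CD200R1 was called in DESeq2 (adjusted p = 0.00229) and without PP pig 1 (-3.37, adjusted p = 0.0308).

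To ask what else cells with FOXP3 held, CD3E cells without CD8B or TRDC UMIs were divided by a FOXP3 UMI and the sides were compared within libraries. The side with FOXP3 was small, with 28 and 14 cells in PP, 9 and 10 in non-PP and 15 and 22 in whole ileum. Non-PP pig 1, with 9 cells, fell below the minimum of 10 and was left out of the fit, and a UMI of FOXP3 is more likely in a deeper cell (median 2533 to 3296 UMIs with FOXP3, 2275 to 2890 without). IL2RA, CTLA4 and LAG3 were higher and CD96 was lower in the FOXP3 cells, 4 of 8 members, where 3.39% of 7293 genes were called. The median over all genes was itself shifted by -0.22, with 48 genes called higher and 199 lower. With RLE size factors the shift was -0.11 with 76 higher and 158 lower, with DESeq2 -0.15 with 56 and 78, and after thinning -0.48 with 15 and 249.

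CTLA4 was 515 and 222 CPM in the FOXP3 cells of PP, 221 CPM in those of non-PP pig 2, and 251 and 366 CPM in those of whole ileum. Cells without FOXP3 of the same libraries held 84.3, 69.2, 50.1, 64.3 and 70.8 CPM. All 5 libraries were thus higher with FOXP3 and the sides did not overlap (2.03 ± 0.24 on the log2 scale, edgeR adjusted p = 1.02e-14). The fit shares its spread over genes, so p-values this small do not measure the spread of a single gene over 5 libraries. The side without FOXP3 was not limited to CD4-gated cells. CD4-gated cells of the same libraries held 241, 202, 185, 131 and 261 CPM of CTLA4, in the same order. The part of T cell class in this split was not tested. In cells counted one by one, 56 of the 116 ileal FOXP3 cells held CTLA4. The share was 33.3% to 64.7% per library (median 41.1%) against 2.92% to 13.0% of CD3E cells without FOXP3, and 9.09% to 38.9% against 1.44% to 7.39% after thinning, higher with FOXP3 in 6 of 6 libraries. In PBMC 12 of 39 FOXP3 cells held CTLA4. The 13 and 18 of them without CD8B or TRDC UMIs held 2 and 12 CTLA4 UMIs, or 28.9 and 93.0 CPM, against 6.13 and 7.20 CPM without FOXP3.

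IL2RA was 26.4 to 166 CPM with FOXP3 and 10.4 to 17.0 CPM without (2.59 ± 0.40, adjusted p = 2.19e-08), and PBMC gave 188 and 62.0 CPM with FOXP3 against 3.42 and 5.68 CPM. LAG3 was 698 and 333 CPM in PP, 295 CPM in non-PP pig 2 and 423 and 329 CPM in whole ileum with FOXP3, against 84.1 to 117 CPM without (1.76 ± 0.21, adjusted p = 6.17e-15). In blood the FOXP3 side held 0 LAG3 UMIs in 13 cells of pig 1 and 1 UMI in 18 cells of pig 2, or 0 and 7.75 CPM. Cells without FOXP3 held 11.06 and 29.8 CPM there, and counts this low give no direction. A LAG3 UMI was held by 51 of 116 ileal and 2 of 39 PBMC FOXP3 cells, and this difference between ileum and blood was not tested.

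CD96 was counted as 3 UMIs in the FOXP3 cells of these 5 libraries, all in non-PP pig 2, against 1120 UMIs in the cells without, 5.89-fold lower per UMI sequenced with an exact 95% interval of 2.01 to 28.6 for counting error. Of the 116 ileal FOXP3 cells 2 held CD96 and 2 held CD200R1. The call of CD96 (edgeR adjusted p = 0.00631) ended with the replicate block (adjusted p = 0.344), in DESeq2 (adjusted p = 0.101) and after thinning (adjusted p = 0.0696), and without PP pig 1 (-2.22, adjusted p = 0.0851) or the library labelled whole ileum pig 1 (-2.27, adjusted p = 0.0514). TIGIT (0.56 ± 0.40), CD28 (0.90 ± 0.34) and PDCD1 (-0.61 ± 0.30) did not pass, though PDCD1 was called lower once cells with B cell UMIs were left out (-1.02, adjusted p = 0.0224). Summed B-lineage markers were 36.9 to 647 CPM with FOXP3 and 643 to 6442 CPM without, beside which JCHAIN, the joining chain of secreted antibodies, was lower with FOXP3 by 4.80 on the log2 scale. The part of these transcripts in the result was not tested.

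The same cells were divided by a PDCD1 UMI, with 65 to 465 PDCD1 cells in each of the 6 ileal libraries. CTLA4, TIGIT, LAG3 and CD28 were higher and CD96 and CD200R1 lower in PDCD1 cells, 6 of 8 members, where 14.4% of 8135 genes were called. CTLA4 was 163 to 230 CPM with PDCD1 and 20.3 to 49.9 CPM without (2.29 ± 0.12, adjusted p = 1.04e-08). LAG3 was 155 to 288 CPM with PDCD1 and 29.7 to 90.7 CPM without (1.79 ± 0.12), TIGIT 38.1 to 131 CPM against 17.0 to 26.7 CPM (2.00 ± 0.20), and CD28 50.2 to 145 CPM against 22.3 to 39.9 CPM (1.35 ± 0.14). These 4 genes were higher with PDCD1 in 6 of 6 libraries, and their ranges did not overlap. Neither side was limited to CD4-gated cells, and GZMB was 2125 to 12662 CPM without PDCD1 against 283 to 4415 CPM with it. The whole ileal CD4 gate held CTLA4 at 131 to 261, LAG3 at 171 to 304, TIGIT at 39.5 to 121 and CD28 at 59.2 to 138 CPM. These levels lie near those with PDCD1, and the part of T cell class in this split was not tested.

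CD96 was 4.80 to 50.2 CPM with PDCD1 and 32.4 to 190 CPM without, lower in 6 of 6 libraries (-1.91 ± 0.15), and CD200R1 was 3.95 to 53.9 CPM against 14.7 to 94.4 CPM (-1.69 ± 0.25). Both calls ended with the replicate block (adjusted p = 0.0721 and 0.212). FOXP3 (0.61 ± 0.36) and IL2RA (0.48 ± 0.21) did not pass. In cells counted one by one, 590 of 2100 ileal PDCD1 cells held CTLA4, 699 held LAG3, 455 held TIGIT and 28 held FOXP3, while 207 held CD96. Of all 16117 ileal CD3E cells, 1397 held CTLA4, 2289 LAG3, 1306 TIGIT, 116 FOXP3 and 4119 CD96. CD96 and CD200R1 were found together in 1007 of the 4119 CD96 cells. The share was 14.2% to 29.2% per library against 4.04% to 16.4% of cells without CD96, higher in 6 of 6 libraries also after thinning. All T cell classes were counted here, and TRDC-gated cells supplied 44.7% of the CD96 and 39.8% of the CD200R1 cells. RNA outside cells held more of both genes in non-PP than in PP. The part of class and of this RNA in the overlap was not tested.

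**Figure D4:**
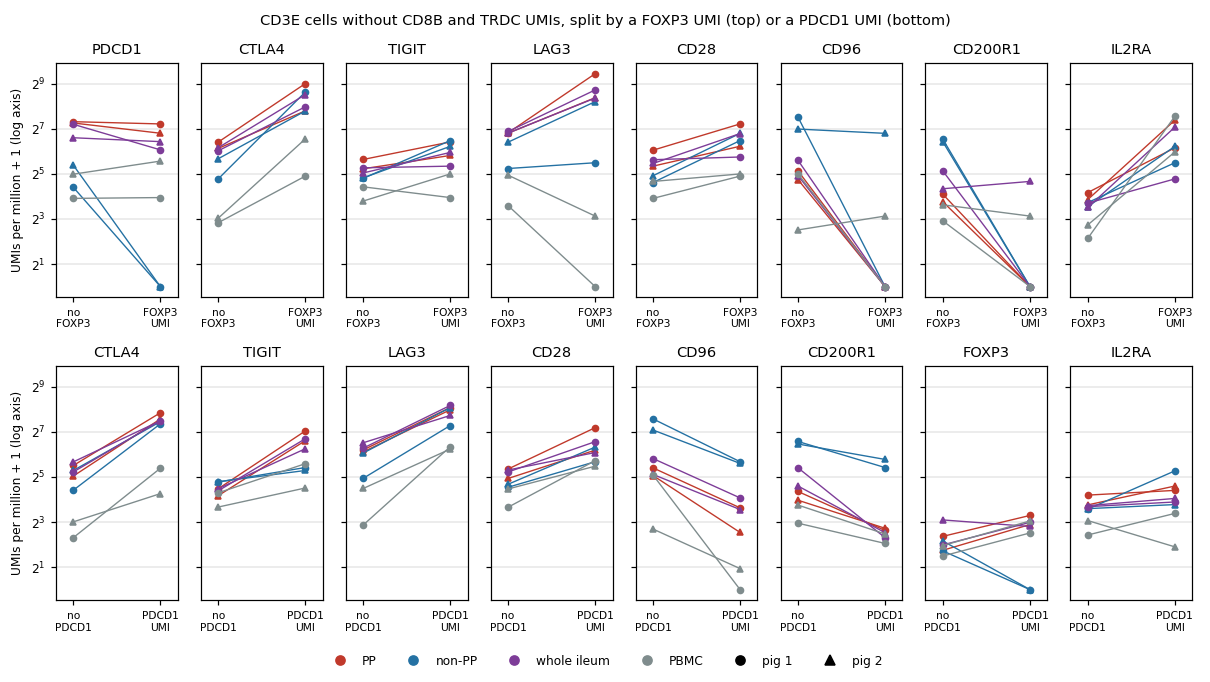
Level of each gene (CPM + 1, log axis) in CD3E cells without CD8B and TRDC UMIs, without and with a FOXP3 UMI (top) or a PDCD1 UMI (bottom), 1 line per library. CTLA4 is higher with the gene on every line of both rows. LAG3 is higher with FOXP3 on every ileal line that entered the fit. The line of non-PP pig 1 rests on 1 LAG3 UMI in 9 cells with FOXP3 and gives no direction. Both PBMC lines rest on 0 and 1 LAG3 UMIs with FOXP3 and give no direction either. CD96 is at 0 with FOXP3 in 5 of 6 ileal libraries.

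The genes called with the smallest p beside FOXP3 were IL10, which encodes an inhibitory cytokine (221 to 555 CPM against 66.3 to 102 CPM), LAG3, CTLA4, the tumour necrosis factor receptors TNFRSF1B and TNFRSF18 (GITR), IL2RA, CTSC and TNIP3. Lower beside JCHAIN were the cytotoxic genes GZMB (-3.13 ± 0.12) and GNLY (-3.52 ± 0.15) and the chemokine CCL5 (-2.29 ± 0.10). GZMB was 127 to 3612 CPM with FOXP3 and 1679 to 11921 CPM without. The part of T cell class in these differences was not tested. Of 14 regulatory T cell genes listed, 9 could be tested, of which 4 were higher with FOXP3 (IL10, TNFRSF18, the transcription factor BATF at 1.33 ± 0.24 and the chemokine receptor CCR4 at 2.32 ± 0.41) and 1 lower (ENTPD1, an ATP-degrading enzyme, at -2.04 ± 0.64), with a median of 0.78 against -0.22 for all genes.

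Beside PDCD1 the genes with the smallest p were CTLA4, LGMN, the co-stimulatory receptor ICOS (146 to 263 CPM against 23.8 to 60.3 CPM), IL6R, LAG3, RAE1, CD40LG, the ligand through which T cells help B cells, and STX11, and lower were a GZMA gene (ENSSSCG00000016902), FABP6, LYPD8 and GZMB. FABP6 and LYPD8 are genes of enterocytes, and summed epithelial markers were 8.89 to 116 CPM with PDCD1 and 243 to 1154 CPM without. Of 12 follicular helper genes listed, 9 could be tested, 7 higher with PDCD1 and 1 lower, with a median of 1.67 against -0.01 for all genes. SH2D1A, an adaptor of T and B cell contact, differed by 2.21 ± 0.15, the transcription factors TOX2 and MAF by 2.06 ± 0.27 and 1.80 ± 0.13, and CXCR5, the receptor that leads cells into follicles, by 1.62 ± 0.18.

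Other genes of the system were read from the same lists. Between ileal CD4-gated cells and the other 2 gates, 8 of 10 follicular helper genes were higher and none lower (median 2.63, all genes -0.06), led by IL21 (5.37 ± 0.65), CD40LG (4.45 ± 0.23), MAF (3.43 ± 0.21) and CXCR5 (2.93 ± 0.37). Of 9 regulatory T cell genes 5 were higher, among them TNFRSF4 (5.49 ± 0.50), CCR4 (3.23 ± 0.24) and IL10 (2.77 ± 0.23), and 2 lower (IKZF2 at -1.01 ± 0.20 and ENTPD1 at -0.91 ± 0.28). Of 10 other receptors 4 were higher, with ICOS at 2.87 ± 0.15, and 3 lower, with the NK receptor CD244 at -2.70 ± 0.31 and TNFRSF9 at -2.31 ± 0.50. For this comparison the split of called genes was 730 higher and 789 lower, against 868 and 615 with RLE size factors and 880 and 577 in DESeq2.

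Between PP and non-PP in CD4-gated cells, 3 of 9 follicular helper genes were higher in PP (median 1.25, all genes 0.03). SH2D1A differed by 1.99 ± 0.24 (adjusted p = 0.00351), and CXCR5 and POU2AF1 were counted in PP and at 0 UMIs in both non-PP libraries, so no fold is given, and the median is the same with genes at 0 set to their bound. Over all CD3E cells 3 of 10 were higher (median 1.26, all genes -0.03, SH2D1A 1.72 ± 0.23, CXCR5 3.43 ± 0.46 and POU2AF1 5.08 ± 0.25, a coactivator abundant in B cells), beside the B cell UMIs given above. In the same CD3E cells none of 8 ligands was called, 2 of 10 other receptors were lower in PP (CD226 at -0.78 ± 0.18 and CD244 at -1.71 ± 0.36) and, of 11 regulatory T cell genes, CCR4 was higher (1.97 ± 0.21) and PRDM1 lower (-0.80 ± 0.12). CD4-gated cells of ileum and blood differed in 4 of 9 regulatory T cell genes upward, with IL10 at 3.88 ± 0.26 (153 to 374 CPM against 13.4 and 16.3 CPM) and TNFRSF18 at 2.49 ± 0.29, and 1 downward (IKZF2, -0.83 ± 0.23), with a median of 1.14 against -0.02.

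The ligands were less often measurable, 5 to 8 of 13 in each gate. CD274, the ligand of PDCD1, was 7.82 to 30.4 CPM in ileal CD4-gated cells, above the 1.02 to 5.51 CPM of the CD8B and 2.11 to 4.62 CPM of the TRDC gate (2.41 ± 0.31, adjusted p = 2.7e-06). PDCD1LG2, its second ligand, was lower in ileal than in blood CD3E-negative CD2 cells (8.52 to 15.3 CPM against 29.7 and 67.2 CPM, -2.08 ± 0.31). CD80 was lower in ileal than in blood CD3E cells (6.82 to 12.8 CPM against 19.97 and 20.3 CPM, -1.12 ± 0.19). CD86, the other ligand of CD28 and CTLA4, was 87.6 to 189 CPM in ileal B-gated cells and 65.1 and 77.8 CPM in those of blood.

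Across the 32 sums of 8 libraries and 4 gates, ICOS was the gene whose log2 level ran most like those of PDCD1 (Pearson r = 0.95), CD28 (0.93) and LAG3 (0.91), and IL10 was most like CTLA4 (0.92). CD96 ran most like UBAC2 (0.93), CD200R1 like MASP1 (0.90), TIGIT like PRDX6 (0.83), IL2RA like the cytokine gene IL22 (0.87) and FOXP3 like CARD19 (0.79). These values are descriptions, since sums of 1 library share that library and its depth, and sums of 1 gate share its cell class.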

How the data were processed

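Single-cell RNA of ileum and PBMC was captured with 10x Chromium v2 chemistry. The deposited files hold raw UMI counts, which the authors made with Cell Ranger on reads aligned to Sscrofa11.1 with a modified Ensembl annotation, before their removal of ambient RNA and doublets. Each library has 4 labelled runs, which share the count matrix of that library. Barcodes with at least 1250 UMIs, at least 550 genes and at most 12.5% mitochondrial UMIs were kept. No doublet caller was run. Leaving out cells with B cell UMIs, or the 5% of cells with the most UMIs, served instead. Gene names came from the files (17733 genes) and a name table (951 genes).

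UMIs were summed per library and gate and tested with edgeR 4.0.16 (filterByExpr, TMM, quasi-likelihood, Benjamini-Hochberg over all genes tested, call below 0.05), in 1 fit per gate over all 8 libraries or over 32 sums with library as a term. Splits used the 6 ileal libraries with at least 10 cells on each side. Alternatives were DESeq2 1.42.0, RLE size factors, no filter, thinning of each cell to 1250 UMIs, a CD3E minimum of 2 UMIs, sums per pig, a pig block and leaving out each library. Samples of the same number are labelled as 1 pig, which is the pairing, but Y-linked UMIs went against the label of whole ileum pig 1, so the block and the sums per pig were also run without it, an alternative chosen after seeing the data. Deviations of same-numbered libraries over genes correlated at 0.45 (PP, non-PP), 0.39 (non-PP, PBMC), 0.29 (PP, PBMC), 0.07 (non-PP, whole ileum), 0.03 (whole ileum, PBMC) and -0.11 (PP, whole ileum). With 2 pigs, p-values measure the spread between libraries that the terms of a fit leave, as the fit shares it over genes. The FOXP3 split had 10 sums, and its smallest p-values rest on that shared spread more than on a single gene's own over 5 libraries. The fits were tested on simulated data. All called members are named in each comparison, while some tested members that did not pass are not. Beside them stand up to 4 genes of a list and the 8 higher and 4 lower genes of a split with the smallest p. The members and lists were chosen with earlier results of these data known. Depth is the UMI total per library, and intervals cover counting error only.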

Additional observations from a re-analysis of the deposited data

Results flagged for a closer look

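The difference between CD4-gated cells and the mean of CD8B-gated and TRDC-gated cells was called as unequal in ileum and blood for TIGIT. The log2 interaction was 2.04 (edgeR adjusted p = 0.0201). As given above, that call ended with pig in place of library. It also ended without PP pig 2, without either whole ileum library and without either PBMC library. In the ileum TIGIT was 39.5 to 121 CPM in CD4-gated cells and 16.9 to 19.98 CPM in CD8B-gated cells. In PBMC it was 19.6 and 13.6 CPM in CD4-gated cells and 27.5 and 21.3 CPM in CD8B-gated cells, so the order of these 2 gates was turned, while TRDC-gated cells held 19.5 and 4.73 CPM, not above the CD4-gated cells of either library. PDCD1 had an interaction of 1.85 (adjusted p = 0.0405). Its PBMC levels were 53.7 and 44.5 CPM in CD4-gated cells and 13.7 and 46.1 CPM in CD8B-gated cells. Without PBMC pig 2 the value was 0.54. As given above, the PDCD1 call also ended with pig in place of library. The same held without PP pig 1, PP pig 2, non-PP pig 1 or the library labelled whole ileum pig 1. The cause of either difference was not tested.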

How the results depend on the processing

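Of the member values recomputed under other settings, 938 kept direction and side of the threshold, 33 became called, 41 lost their call and 12 changed sign. With 1 library left out these numbers were 722, 14, 64 and 22. The cause of a change was not tested where none is given.

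Calls over all genes moved as follows. In CD3E cells, PP minus non-PP (656 calls), DESeq2 gave 1007, no filter on low counts 1224, thinning 381, leaving out cells with B cell UMIs 52, a CD3E minimum of 2 UMIs 203 and the replicate block 1059 (589 higher and 470 lower, against 431 and 225), and leaving out 1 library 84 to 862. In CD3E cells, ileum minus PBMC (3085), sums per pig gave 2020 and leaving out 1 library 1873 to 3036. In CD4-gated cells, PP minus non-PP (103), no filter gave 388, thinning 48 (24 higher and 24 lower, against 41 and 62), no cells with B cell UMIs 65, no cells with the most UMIs 57 and 1 library less 16 to 105. In CD4-gated cells, ileum minus PBMC (869), thinning gave 565, DESeq2 409 higher and 196 lower against 494 and 375, and 1 library less 419 to 931. In CD8B-gated cells (1249) no filter gave 1962, thinning 803 and 1 library less 620 to 1305. In TRDC-gated cells (1238) no filter gave 2110, sums per pig 559 and 1 library less 728 to 1028. In CD3E-negative CD2 cells (2428) thinning gave 1387 and 1 library less 751 to 3059. Within the ileum, CD4-gated against the other gates (1519) gave 984 after thinning, CD8B against TRDC (864) gave 378 after thinning, 257 with the replicate block and 447 to 887 with 1 library less, and CD3E-negative CD2 cells against the T cell gates (2815) gave 1472 after thinning and 1734 with the replicate block. The interaction (119) gave 186 without cells with B cell UMIs, 72 with the CD3E minimum, 16 with the replicate block and 8 to 138 with 1 library less. The FOXP3 split (247) gave 134 in DESeq2, 49 with the replicate block (15 higher and 34 lower) and 144 to 260 with 1 library less. The PDCD1 split (1169) gave 697 after thinning, 324 with the replicate block and 763 to 1242 with 1 library less.

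None of the members that changed sign under other settings than leaving out a library was called in either case. After thinning these were CD28 in CD4-gated cells, PP minus non-PP (-0.20), IL2RA in CD8B against TRDC (0.028), FOXP3 in the interaction (-1.22) and TIGIT in the FOXP3 split (-0.30). FOXP3 in CD4-gated cells, PP minus non-PP, was -0.11 in DESeq2, -0.098 with the replicate block without the library labelled whole ileum pig 1 and -0.44 without the cells with the most UMIs. IL2RA in CD8B against TRDC was 0.0078 without those cells and 0.0053 with the CD3E minimum, and FOXP3 in the interaction was -0.12 without cells with B cell UMIs and -0.11 with the CD3E minimum. PDCD1 in CD8B-gated cells, ileum minus PBMC, was 0.049 with the replicate block. With 1 library left out, FOXP3 ran from -0.057 to 0.32 in CD3E cells (ileum minus PBMC), from -5.84 to 0.84 in CD4-gated cells (PP minus non-PP), from -1.49 to 0.73 there (ileum minus PBMC) and from -0.22 to 0.43 in the interaction. CD28 ran from -0.39 to 0.79 in CD4-gated cells (PP minus non-PP), from -0.18 to 1.73 in TRDC-gated cells and from -0.58 to 0.85 in the interaction, and CD96 from -1.59 to 2.77 there. PDCD1 ran from -0.67 to 1.09 in CD8B-gated and from -0.075 to 2.06 in TRDC-gated cells, LAG3 from -0.19 to 2.28 in CD8B-gated cells and IL2RA from -0.075 to 0.076 in CD8B against TRDC.

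The replicate block ended or made no call of a member beyond those named with it in the report. FOXP3 rested on 144 UMIs over all ileal CD3E cells, which limits the precision of its differences, and whether depth or few FOXP3 cells set that number was not tested.

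The library labelled whole ileum pig 1 goes against its label, so the fits that use the pig were repeated without it, a choice made after seeing the data. With the replicate block calls then numbered 1260 and 227 for PP minus non-PP in CD3E and CD4-gated cells, 1944 for ileum minus PBMC in CD8B-gated cells, 994 for the CD4 gate against the others, 126 for CD8B against TRDC, 1153 for CD3E-negative CD2 cells against the T cell gates, 7 for the interaction, 43 for the FOXP3 split and 105 for the PDCD1 split. Per pig, ileum minus PBMC gave 1659 in CD3E, 568 in CD8B-gated, 315 in TRDC-gated and 1564 in CD3E-negative CD2 cells. With the block PDCD1 in CD4-gated cells, PP minus non-PP, became called (1.24, adjusted p = 0.00549), and LAG3 in CD8B against TRDC (adjusted p = 0.0548) and IL2RA in CD3E-negative CD2 cells against the T cell gates (adjusted p = 0.0617) were lost, beside every call the block had ended with that library in. Per pig CTLA4, CD96 and IL2RA in CD8B-gated cells (adjusted p = 0.063, 0.0533 and 0.069), CD96 in TRDC-gated cells (adjusted p = 0.0587) and CD96 in CD3E-negative CD2 cells (adjusted p = 0.0545) were lost as well.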
